A study of Mus musculus with 32 samples.

Results

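The regions described here were the stretches of the mouse genome at which every one of 32 ATAC-seq libraries of sorted dendritic cells had a peak. ATAC-seq marks DNA that a transposase can reach, so a peak is a stretch of open chromatin. Autosomal bases under peaks of 3 or more libraries were joined into consensus regions, of which those of 100 bp or more were kept. A library counted as open at such a region if the shared bases made up 50% or more of either the region or a peak. Of 88757 consensus regions, 20679 were open by that rule in all 32 libraries, which is 23.3%; they were thus chosen by the measured presence of peaks. They held 32.1 of the 69.7 Mb in consensus regions, or 46.0% of the bases. That presence and what follows from it, such as width against other regions, are therefore given as description without a test.

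The cells were dendritic cells from skin-draining lymph nodes. Migratory cells were DN migDC (6 libraries), migDC1 (4) and migDC2 (6), and resident cells were cDC2 (6) and cDC1 (6). The cells labelled DN migDC by cell type carry the source name CD11bCD103migDC3 and were taken as 1 subset; the labels state no sorting gate. Each of these 5 subsets was split evenly between CD11cCREpos/IFNgr1flfl mice, labelled Ifngr1 KO and called Cre-positive here, and CD11cCREneg/IFNgr1flfl mice, labelled Ifngr1 WT and called Cre-negative. Ifngr1 is the gene of the receptor chain that binds interferon-γ, both groups carried its floxed allele, and the Cre was driven by CD11c, which dendritic cells and some other myeloid cells express. A second set held migDC2 from IFNgr1-/- mice (2 libraries), which lack the receptor in every cell, and from WT mice (2 libraries). The labels give no age, sex, strain or pooling and do not say which libraries came from separate animals, so the p-values measure the spread between libraries, which may be technical. Titles fell into a plain-numbered, a lettered and a germline set: all resident libraries had plain titles, all migDC1 libraries had lettered titles, and migDC2 and DN migDC had 1 plain and 2 lettered libraries in each floxed genotype. Differences between migratory and resident cells are therefore given with the plain-titled libraries alone, and those between migDC1 and migDC2 with the lettered ones.

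Open chromatin is found at promoters of active genes, many of them genes that every cell needs, and at elements held open by the regulators of a lineage. Dendritic cells take up antigen, and after maturation they travel to the lymph node through the chemokine receptor CCR7, load peptide on MHC molecules and prime or tolerise T cells. Interferon-γ acts through its receptor and JAK kinases to switch on IRF1 and the genes of antigen presentation.

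The promoters of 6 of these regions show the sequences at issue, taken from RefSeq on GRCm38.p6 from 250 bases before to 50 after the annotated start. Jak1 is shown as a promoter whose rank hardly varied and Dusp1 as one of the strongest regions. Fscn1 is shown as one of the regions with the greatest contrast between migratory and resident cells, and Irf1, Itgax and Btaf1 as regions that differed by genotype. Capitals mark matches on either strand. The CREB family binds the CRE, searched as TGACGTCA, and SP and KLF factors bind GC boxes, searched as GGGCGG. The trimer NFY binds CCAAT, and ETS factors were searched with the letters CCGGAAG. The TATA box was searched as TATAAA and the AP-1 site as the letters TGACTCA.
Jak1, chr4:101265174-101265473, minus strand: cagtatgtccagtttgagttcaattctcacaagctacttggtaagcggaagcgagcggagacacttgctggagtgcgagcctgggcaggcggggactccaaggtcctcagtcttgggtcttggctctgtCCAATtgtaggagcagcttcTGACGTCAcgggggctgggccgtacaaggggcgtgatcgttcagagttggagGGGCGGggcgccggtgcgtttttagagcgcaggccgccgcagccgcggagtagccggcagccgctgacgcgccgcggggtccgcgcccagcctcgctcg
Dusp1, chr17:26508423-26508722, minus strand: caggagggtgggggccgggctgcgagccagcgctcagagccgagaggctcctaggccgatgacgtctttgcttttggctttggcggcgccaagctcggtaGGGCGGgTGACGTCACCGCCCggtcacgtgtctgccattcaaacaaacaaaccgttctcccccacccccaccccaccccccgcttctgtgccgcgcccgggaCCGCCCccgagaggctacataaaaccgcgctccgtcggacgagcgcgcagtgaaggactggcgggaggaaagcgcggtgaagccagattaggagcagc
Fscn1, chr5:142960105-142960404, plus strand: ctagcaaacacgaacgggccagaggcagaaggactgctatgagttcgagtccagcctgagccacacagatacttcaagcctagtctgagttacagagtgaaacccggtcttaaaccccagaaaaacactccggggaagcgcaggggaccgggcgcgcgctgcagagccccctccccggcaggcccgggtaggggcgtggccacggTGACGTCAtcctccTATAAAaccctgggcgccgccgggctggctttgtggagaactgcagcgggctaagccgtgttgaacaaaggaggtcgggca
Irf1, chr11:53769764-53770063, plus strand: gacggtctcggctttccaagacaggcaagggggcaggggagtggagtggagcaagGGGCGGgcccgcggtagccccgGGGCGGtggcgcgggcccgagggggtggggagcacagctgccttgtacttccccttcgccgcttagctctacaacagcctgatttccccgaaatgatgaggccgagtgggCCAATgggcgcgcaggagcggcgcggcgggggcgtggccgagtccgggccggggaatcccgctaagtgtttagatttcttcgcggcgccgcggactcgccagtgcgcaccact
Itgax, chr7:128129300-128129599, plus strand: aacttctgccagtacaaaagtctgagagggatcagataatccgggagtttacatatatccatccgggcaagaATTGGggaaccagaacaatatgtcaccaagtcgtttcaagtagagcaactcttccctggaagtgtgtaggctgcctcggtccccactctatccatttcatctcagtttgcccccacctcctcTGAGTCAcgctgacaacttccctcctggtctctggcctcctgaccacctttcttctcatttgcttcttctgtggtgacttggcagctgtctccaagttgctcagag
Btaf1, chr19:36925829-36926128, plus strand: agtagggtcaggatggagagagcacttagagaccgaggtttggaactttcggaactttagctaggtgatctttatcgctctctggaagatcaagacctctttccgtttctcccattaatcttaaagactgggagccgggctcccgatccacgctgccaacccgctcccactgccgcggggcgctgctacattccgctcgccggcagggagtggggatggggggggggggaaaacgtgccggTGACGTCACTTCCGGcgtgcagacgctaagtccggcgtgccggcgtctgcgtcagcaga
The palindromic CRE reads the same on both strands, and it began 101 bases before the start in Jak1, 143 in Dusp1, 45 in Fscn1 and 9 in Btaf1. Over all 20085 start sites with a promoter sequence, 2.30% held it, against 3.73% of those inside a region open in every library. In Btaf1 an ETS match followed the CRE directly, without shared bases. Itgax, the gene of CD11c, had the fewest CG dinucleotides of the 6 promoters (5 in 300 bases), against 21 in Fscn1 and 32 in Irf1. A match describes letters in this window and is not evidence that a factor bound there.

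The regions open in every library were wider than the others and lay more often at gene ends. Their median consensus width was 1314 bp, against 460 bp for the 68078 other regions, and 1109 of them spanned 3 kb or more. A gene end within 1000 bp was present for 9375 of them (45.3%), against 8.71% of the other regions. A further 6397 lay inside gene bodies, 3979 were distal and 928 had no gene within 50000 bp. Starts of genes were far more often inside than their other ends: 8220 of 16457 genes (49.9%) started in such a region, and the other end of 560 genes (3.40%) lay in one. Just inside and outside the rule, regions called in 32 libraries had a median width of 1314 bp and 45.3% at gene ends, while the 2445 called in 31 libraries had 877 bp and 16.4%.

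**Figure D1:**
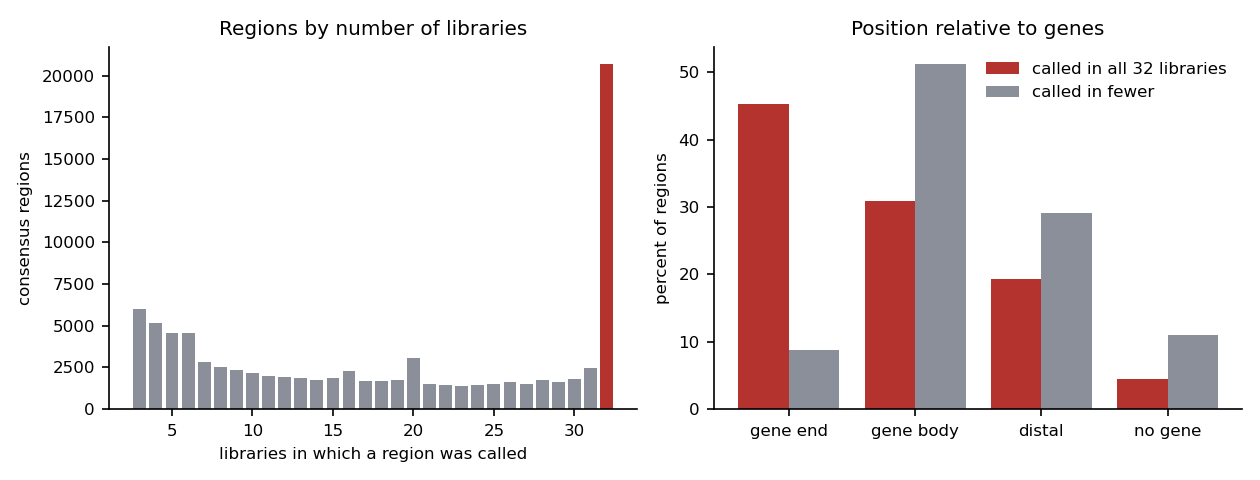
Left, the number of consensus regions (vertical axis) by the number of libraries in which a region was called (horizontal axis), with the 20679 called in all 32 in red. Right, the percent of regions at a gene end (within 1000 bp), in a gene body, distal or without a gene within 50000 bp, for regions called in all libraries (red, left bars) and in fewer (grey, right bars); gene ends took 45.3% and 8.71%.

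Being called in every library did not mean that the whole span was open in every library. The strongest peak matched to the region was at least 50% as wide as the consensus region in all 32 libraries for 7363 of the 20679 (35.6%), and for 109 of the 1109 that spanned 3 kb or more. In 122 regions it was under 10% of the span in at least 1 library. Values by library below therefore give peak width as well as rank.

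The promoters inside these regions were rich in CG. Their median GC content was 62.0% and their median ratio of observed to expected CG was 0.804, against 57.0% and 0.586 over all promoters and 49.0% and 0.223 over the 8389 start sites in no region. ETS letters were found in 21.3% of them, against 11.9% of all promoters, and SP/KLF letters in 69.1%, against 47.0%. NRF1 letters (GCATGCGC) were found in 6.16%, against 3.55%, and YY1 letters (AAGATGGC) in 5.09%, against 3.06%. TATA letters were rarer, at 5.67% against 12.7%, as were AP-1 letters, at 3.02% against 4.70%. CCAAT, at 39.0% against 38.1%, and the PU.1 letters GAGGAAGT of the main myeloid ETS factor, at 3.19% against 3.18%, were about as common inside as overall. Among other kinds of gene, 159 of 391 tRNA genes (40.7%) lay in these regions, against 115 of 1136 miRNA genes (10.1%) and 38 of 8884 pseudogenes (0.428%).

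The share of genes with such a region at an end differed between the gene lists. The background is 10272 of 20665 protein-coding autosomal genes (49.7%). Most lists of machinery that every cell uses were nearly complete: 72 of 73 cytosolic ribosomal proteins, 38 of 38 splicing factors, 35 of 35 subunits and general factors of RNA polymerase II, 32 of 33 proteasome subunits and 35 of 38 respiratory chain subunits. Cohesin and insulator factors were an exception, with 8 of 12. Rad21, Stag1, Nipbl and Sgo1 had no consensus region at an end, whether called in all or fewer libraries, and the reason was not tested. Immune lists were also well covered, with 16 of 16 MHC class I presentation genes, 15 of 15 interferon-γ pathway genes, 34 of 35 myeloid and DC transcription factors, 28 of 30 genes of DC maturation and migration and 15 of 18 MHC class II presentation genes. Genes that interferon-γ induces had 15 of 22 and tolerance-associated genes 11 of 16. Of genes that characterise single subsets, 13 of 16 had one for cDC1, 11 of 17 for cDC2 and 8 of 12 for Langerhans and skin DC genes.

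Most markers of cells that should not be in the sort had no gene end open in every library. A gene end was open in every library for 0 of 11 neutrophil, 1 of 12 NK cell and ILC, 1 of 15 stromal and epithelial, 2 of 15 T cell, 2 of 12 B cell, 2 of 14 monocyte and macrophage and 3 of 10 plasmacytoid DC markers (Bst2, Tcf4 and Irf7), and for 4 of 29 genes of other organs. The T cell entries were Cd3d and Cd5 and the B cell entries Cd79a and Blnk, at geometric mean ranks of 7857 for Cd3d, 10014 for Cd5, 3091 for Cd79a and 11434 for Blnk, and the region at Cd79a also holds the start of its neighbour Arhgef1. Many of these markers did have a consensus region at an end, called in all or fewer libraries. It was so for 11 of 14 monocyte and macrophage, 9 of 12 B cell and 8 of 10 plasmacytoid DC markers. For T cell markers it was 8 of 15, for NK cell and ILC markers 6 of 12 and for stromal and epithelial ones 4 of 15. Neutrophil markers had 1 of 11 and genes of other organs 11 of 29, against 13303 of all 20665 genes. The part of other cells in these values was not tested. Ciita, the MHC class II transactivator, and Zeb2, a repressor that guides cDC2, had no such region at an end; 3 lay inside Ciita and 2 inside Zeb2.

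**Figure D2:**
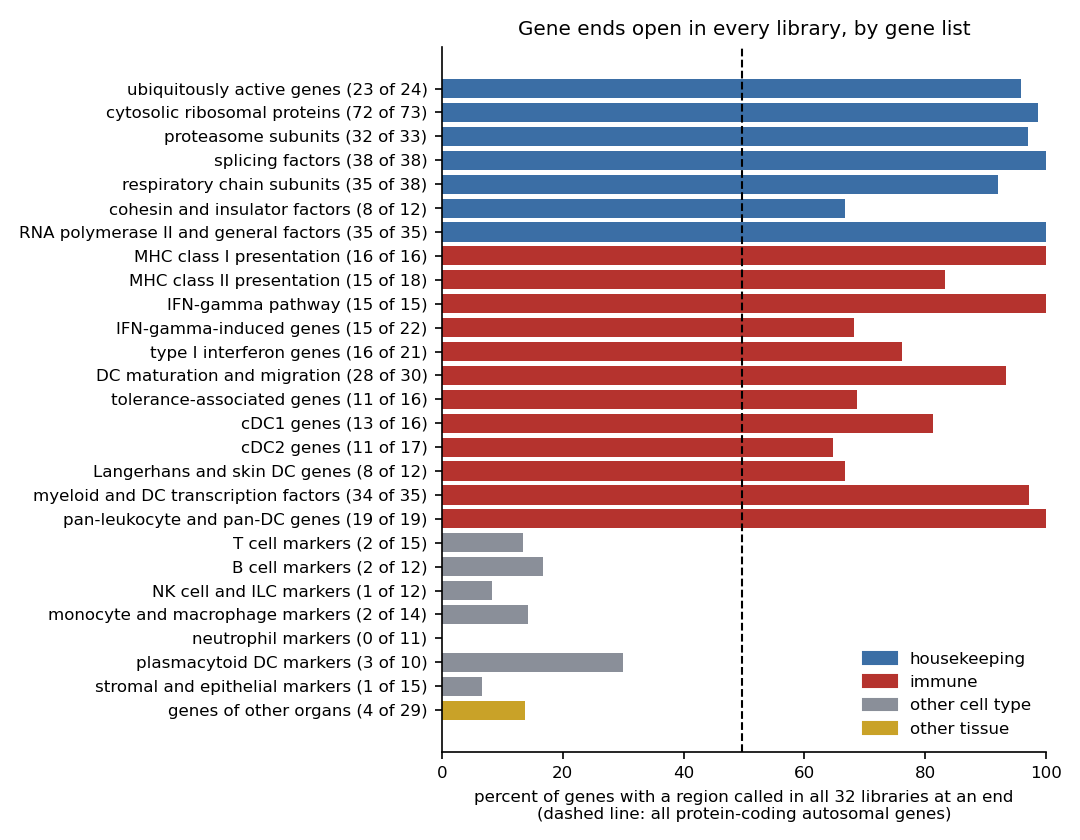
Percent of the genes of each list (horizontal axis, 0 to 100) that had a region called in all 32 libraries within 1000 bp of an end, with the counts beside the list's name. The dashed line marks 49.7%, the share over all protein-coding autosomal genes; housekeeping and most immune lists lie to its right, and markers of other cell types and organs to its left.

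Strength was compared by rank within each library's own list, where 1 is the strongest peak by the deposited signal of column 7; ranks were used because the lists held 32088 to 73627 peaks and carry no read depth. In Genrich, the tool the submitters' notes name, that signal is known as an area over the peak, which would grow with breadth as well as height; the files state no definition. These regions made up 28.1% to 64.4% of the peaks of a list and 928 to 981 of its 1000 strongest. Even so, 11547 of the 20679 lay above the 50th percentile of every list and 1739 fell below the 10th percentile of at least 1. Their median peak width was 702 to 1154 bp across floxed and germline libraries. Replicate 2 of Cre-negative cDC1, with 702 bp, and replicate 1 of Cre-positive DN migDC, with 813 bp, had narrow peaks within their subsets, and results that change without both are named. Replicate 1 of Cre-negative migDC1 also had narrow peaks, with 716 bp against 900 to 949 bp in the other migDC1 libraries, and was left out singly. Subset labels were checked on marker loci: of 67 regions at Wdfy4, a cDC1 gene, cDC1 libraries had a mean of 55.3 called and migDC1 libraries 15.8, against 7.50 in cDC2 and 9.33 in migDC2. Of 15 regions at Zeb2, migDC2 libraries had 14.3 and DN migDC 11.7, against 5.67 in cDC2 and 3.67 in cDC1. Other markers did not separate the subsets: at Itgam, a cDC2 marker, a mean of 6.67 regions were called in cDC2 and 7.50 in cDC1, at Irf4 3.17 in both, at Batf3 3 in both, and at Tlr3 1 in every subset. Every listed subset marker had a call in at least 1 library of each subset, apart from Cd209a, which had none in migDC1.

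**Figure D3:**
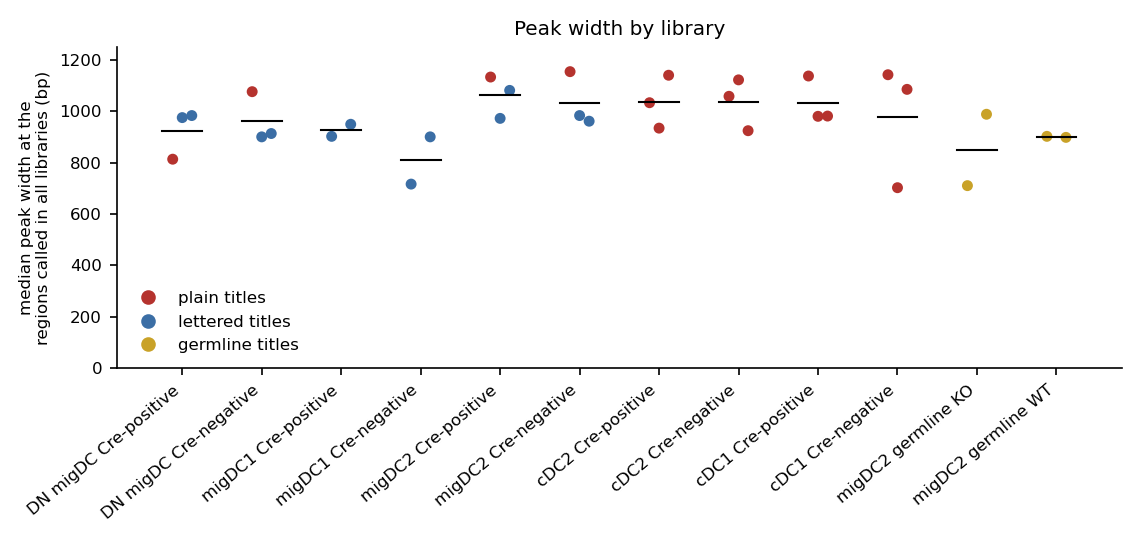
Median width in bp (vertical axis, from 0) of the peaks at the 20679 regions, 1 point per library, by group, with group means as bars and the set of titles by colour. The widths span 702 to 1154 bp, and the lowest points belong to Cre-negative cDC1 replicate 2 (702 bp), germline KO replicate 1 (710 bp) and Cre-negative migDC1 replicate 1 (716 bp).

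The strongest regions held an invariant-chain domain, feedback regulators of inflammation and immediate-early genes. Cd74, the gene of the invariant chain that guards the MHC class II groove, ranked 1 in all 12 resident libraries. In the 16 migratory libraries it ranked 1 to 22, with a median of 3, and migDC1 lay lowest, at 16 to 22. Next by geometric mean over the 32 libraries came Zfp36 (4.48), which encodes the mRNA-destabilising protein tristetraprolin, and Junb (5.52), a subunit of AP-1. They were followed by Nfkbia (7.89), the inhibitor of NF-κB, a distal region beside Frmd8 that annotation places nearest to that gene (11.2), and Dusp1 (11.7), a phosphatase that switches off MAP kinases. Then came H2-DMa (16.9), the peptide-exchange chain for MHC class II, Pim1 (17.3), Actb (18.4) and Gadd45b (20.04). By signal per base of peak the same regions ranked far lower, from a geometric mean of 646 for Junb and 831 for Zfp36 to 4505 for Cd74 and 6634 for the region beside Frmd8.

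At the other end, some regions hardly moved. The 5 with the smallest spread lay near Ptpn21, in Anks1, near Mul1, in Gabbr2 and on chromosome 15 at 59145502 to 59146335 bp, each with an SD of about 0.10 in log2 rank over all libraries. Among genes of the interferon-γ pathway, Jak1, the kinase bound to IFNGR1, ranked 2973 to 4742 in migratory libraries (median 3841) and 3007 to 4330 in resident ones (median 4046), a difference of 0.09 (SE 0.08, adjusted p = 0.311). The SD of log2 rank was 0.19 at Jak1. Over all regions the median SD was 0.348 and the range 0.0989 to 6.20, the highest being Ccr7.

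Differences between groups were tested with limma on −log2 of rank, adjusted over all 22158 regions called in at least 2 libraries of each of the 12 groups. A difference of 1 means a rank number changed 2-fold, and a positive one that the region lay nearer the top in the group named first. Regions named below include up to 10 per direction of each comparison that were picked because their groups did not overlap. Absence of overlap at those regions is therefore description and not a result, and its share over all regions is not given. Across the 5 subsets 17288 of the 20679 passed (83.6%), against 84.2% of all regions tested, of which they were the bulk. Being open everywhere therefore did not mean holding an equal rank in every subset, and the share was near that of all regions tested. Subset and set of titles are partly confounded in this test, since resident libraries had only plain titles and migDC1 only lettered ones. Start sites varied somewhat less: 76.9% of the 7579 regions that held one passed, against 87.5% of the 13100 without, and 9.75% against 14.4% differed by 1 or more between migratory and resident cells. Those 2 classes had median SDs of 0.333 and 0.358. In sorted bulk libraries a weaker peak in all cells and a peak in fewer cells cannot be told apart.

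Over all titles, migratory and resident cells differed at most of these regions, with shares near those of all regions tested. Nearer the top in migratory cells were 5759 (27.8%, with 31.2% of all regions tested), and lower were 9183 (44.4%, with 41.8%); the median shift over these regions was −0.12. A change of rank number of 2-fold or more was seen at 1464 of the first and 1165 of the second. The share over all regions tested is not given for this change, nor for the plain-title counts that follow. Whether such changes were more or less common at these regions was thus not examined. With plain titles alone 4563 and 5647 passed, and 8984 of the 14942 called (60.1%) were called again in the same direction; of the 2629 that changed 2-fold or more it was 2334. Rescaling rank as the logit of the percentile turned the balance to 6937 higher and 4710 lower. The side on which the bulk of small shifts fell thus depended on the scale.

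**Figure D4:**
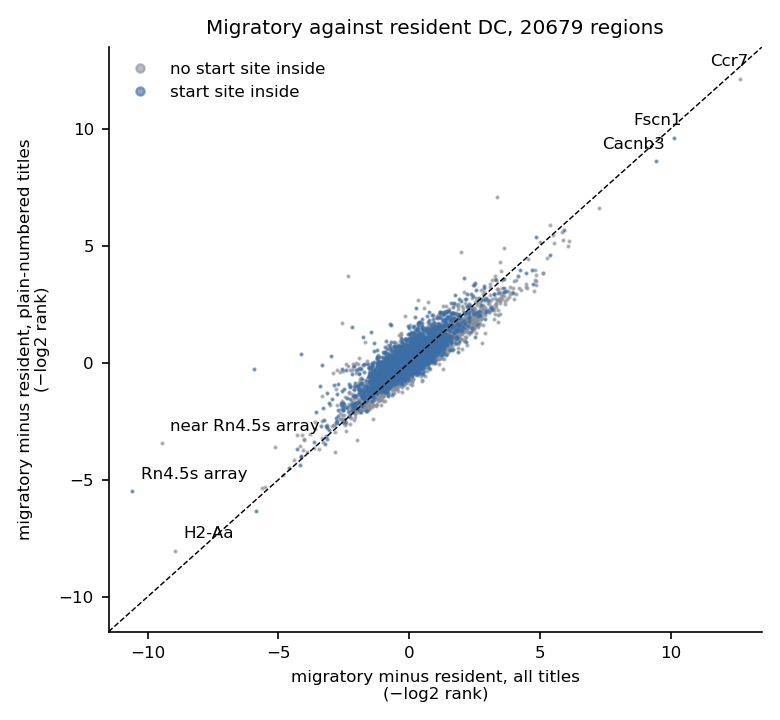
Difference between migratory and resident cells in −log2 rank for each of the 20679 regions, over all titles (horizontal axis) and in plain-titled libraries alone (vertical axis), in blue where the region holds a start site; the dashed line marks equal values. Ccr7, Fscn1, Cacnb3 and H2-Aa lie close to the line, while the region at the Rn4.5s array (−10.59 and −5.50) and its neighbour (−9.46 and −3.44) do not.

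Genes of maturation and migration were mostly nearer the top in migratory cells. Of 33 regions at their ends, 25 were nearer the top in migratory cells and 3 lower, with a median of 1.16, against −0.18 over all 9375 regions at gene ends, of which 1853 were higher and 4532 lower. The list was chosen with earlier results of these data known, so its direction is not independent evidence. On 5 other scales and in plain titles alone 17 to 25 of them were higher and 2 to 3 lower. Ccr7, which guides dendritic cells along CCL19 and CCL21, ranked 1 to 3 in migratory libraries (median 2) and 5580 to 16847 in resident ones (median 9577). The difference was 12.64 (SE 0.21, adjusted p = 5.35e-23) and 12.13 in plain titles. Its strongest peak was 14214 to 23925 bp wide in migratory libraries and 756 to 1762 bp in resident ones, so resident cells entered this 25403 bp region by a small peak inside it.

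Fscn1, which encodes the actin-bundling protein of mature dendritic cells, ranked 8 to 30 in migratory libraries (median 15.5) and 7978 to 26727 in resident ones (median 17923; difference 10.12, SE 0.22, adjusted p = 1.20e-20; 9.63 in plain titles). Cacnb3, a calcium channel subunit, ranked 11 to 74 (median 23) in migratory and 12651 to 21543 (median 17682) in resident libraries, a difference of 9.46 (SE 0.20; 8.61 in plain titles). In none of these 3 genes did the groups overlap. Sema4a, a semaphorin that acts on T cells, differed by 5.94, Socs2, a suppressor of cytokine signalling, by 5.56, Slco5a1 by 5.51 and Rasa2 by 5.39, all without overlap; ranked by summit p, Rasa2 alone of these lost its direction (−0.05). Cd83, a surface marker of maturity, ranked 5 to 384 in migratory and 86 to 10945 in resident libraries, with overlap (6.13, SE 0.77, adjusted p = 1.60e-07; 5.203 in plain titles). The feedback regulators Nfkbia and Gadd45b separated without overlap. Nfkbia ranked 1 to 5 in migratory and 11 to 242 in resident libraries (difference 4.49, SE 0.36, adjusted p = 9.53e-11; 3.82 in plain titles), and Gadd45b ranked 5 to 24 in migratory and 25 to 1200 in resident ones (3.64, SE 0.31; 3.01 in plain titles).

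MHC class II genes were lower in migratory cells, with 3 of 20 regions nearer the top and 13 lower (median −1.10), and ranked by signal per base 2 and 15. At class I presentation genes 11 of 20 regions were nearer the top and 2 lower (median 0.33), but 2 and 8 when ranked by signal per base (median −0.27), so the direction of class I depended on the scale. B2m, the light chain of class I, ranked 70 to 1921 in migratory libraries (median 187.5) and 2040 to 5093 in resident ones (median 2583.5), a difference of 3.98 (SE 0.25, adjusted p = 6.32e-13; 2.97 in plain titles). Its peak was 1876 to 5886 bp wide in migratory and 862 to 2301 bp in resident libraries, and ranked by signal per base the sign turned, to −0.94. H2-K1, a class I heavy chain, ranked 10 to 138 in migratory and 66 to 511 in resident libraries, with overlap (3.39, SE 0.47; 2.97 in plain titles). H2-Aa, the class II α chain, ranked 461 to 21047 in migratory libraries (median 9030.5) and 7 to 225 in resident ones (median 10), without overlap (−8.95, SE 0.46, adjusted p = 2.21e-14; plain titles −8.04). Peaks there were 1063 to 5776 bp wide in migratory and 2927 to 17860 bp in resident libraries. This H2-Aa region starts inside the neighbouring H2-Ab1, the gene of the β chain, so its values are not those of H2-Aa alone. Another region at H2-Ab1 differed by −5.15 and the H2-Eb1 domain by −5.52, and in plain titles by −3.61 and −5.33. Cd74, their chaperone, differed by −2.05 (SE 0.40) over all titles and by 0.00 in plain titles, where every library ranked it 1. Plain titles hold no library of migDC1, the subset that ranked Cd74 lowest. In DN migDC it ranked 4 in 1 lettered library and 1 in the others, plain or lettered.

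Several lists of genes that every cell needs had more regions lower than higher in migratory cells. Cytosolic ribosomal proteins had 6 of 83 regions higher and 66 lower (median −0.38), splicing factors 3 of 45 higher and 27 lower (−0.26), and respiratory chain subunits 3 of 40 higher and 27 lower (−0.29). Over all 9375 regions at gene ends 1853 were higher and 4532 lower (−0.18). With the logit of the percentile those counts were 2409 and 2246. On that scale the ribosomal proteins had 7 higher and 40 lower, the respiratory chain subunits 4 and 10, and the splicing factors 9 and 8. Proteasome subunits had 4 of 34 higher and 18 lower (−0.17), but 7 and 7 with the logit, and cohesin and insulator factors 1 of 8 higher and 1 lower (−0.10). Within the ribosomal list Rpl41 ranked 139 to 2332 in migratory and 153 to 1059 in resident libraries (−1.61, SE 0.39; plain titles −1.002), while Rpl19 ranked 4064 to 8496 in migratory and 9660 to 15582 in resident ones (0.97, SE 0.08; plain titles 1.17). Tolerance-associated genes had 4 of 14 regions higher and 10 lower; Ahr, a ligand-activated transcription factor, differed by −1.29 (plain titles −0.90) and Tgfb1 by −2.48, the second with −1.13 and adjusted p = 0.230 in plain titles. Myeloid transcription factors split 17 higher and 16 lower of 40, but 5 and 16 by signal per base. Etv3, an ETS repressor, differed by 4.75 (SE 0.36; plain titles 3.36), and Runx1 by −3.07 (SE 0.35; plain titles −2.87). Spi1, the gene of PU.1, had 2 regions at its end, and the upstream one ranked 11792 to 21738 in migratory and 3488 to 11544 in resident libraries (−1.22, SE 0.08; plain titles −1.14), without overlap.

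Among the lower regions outside these lists were Man2b1, a lysosomal mannosidase, whose region also holds the starts of Wdr83 and Wdr83os and which ranked 8986 to 12861 in migratory and 134 to 3017 in resident libraries (−4.60, SE 0.31; plain titles −4.51), and Rgs2, a regulator of G-protein signalling, which ranked 597 to 5781 in migratory and 22 to 579 in resident libraries (−4.12, SE 0.45; plain titles −3.99). The largest negative difference followed the sets of titles as well: the region at the Rn4.5s array on chromosome 6, at 47650402 to 47687041 bp, ranked 34 to 573 in plain-titled migratory libraries, 9431 to 15802 in lettered ones and 2 to 6 in resident ones. It differed by −10.59 over all titles and −5.50 in plain ones.

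**Figure D5:**
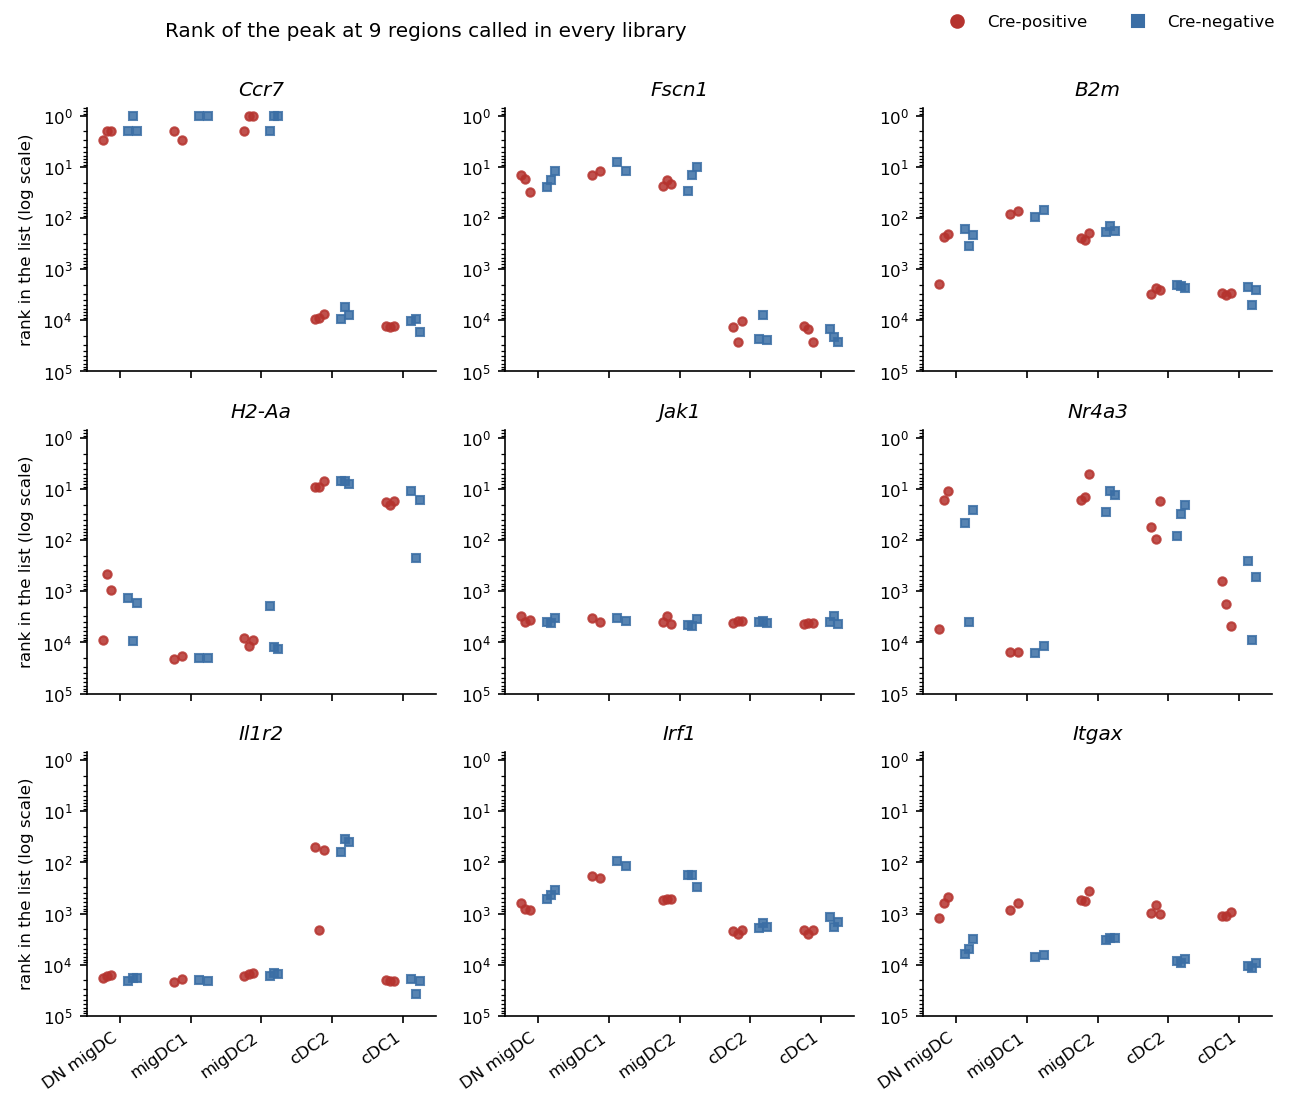
Rank within the library's list (vertical axis, log scale, rank 1 at the top) of the peak at 9 regions open in every library, 1 point per floxed library, by subset, with Cre-positive libraries as red circles left of Cre-negative libraries as blue squares. Ccr7, Fscn1 and B2m sit higher in the 3 migratory subsets (B2m not when ranked by signal per base), H2-Aa in the resident subsets, Il1r2 in cDC2 and Itgax in Cre-positive libraries, while Jak1 stays level.

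Resident cDC2 and cDC1 differed at fewer regions. Nearer the top in cDC2 were 4968 (24.0%, with 25.3% of all regions tested), and lower were 3020 (14.6%, with 14.7%). The balance depended on the scale: the logit of the percentile gave 1055 higher and 7876 lower, ranks among these regions alone 3272 and 3769, and signal centred on them 3668 and 3729. Il1r2, the decoy receptor for interleukin-1, ranked 35 to 2142 in cDC2 (median 53.5) and 19045 to 38047 in cDC1 (median 20776.5; difference 7.97, SE 0.53, adjusted p = 4.12e-11), with peaks of 4320 to 13955 bp in cDC2 and 227 to 1036 bp in cDC1. A region that spans ends of Hip1r and its neighbour Vps37b ranked 16 to 214 in cDC2 and 12628 to 18835 in cDC1 (7.49, SE 0.45). Tbc1d4, a Rab GTPase-activating protein, ranked 41 to 4626 in cDC2 and 17106 to 49967 in cDC1 (6.73, SE 1.40). A region inside Nr4a3, a nuclear receptor induced on activation, ranked 17 to 96 in cDC2 and 251 to 8977 in cDC1 (5.06, SE 1.34). None of these 4 overlapped between the subsets, which the rule for naming regions favoured.

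In cDC1, regions nearer the top than in cDC2 included genes known from that lineage. Cd24a ranked 5128 to 10480 in cDC2 and 316 to 1493 in cDC1 (−3.36, SE 0.35), and Rab7b, a lysosomal GTPase, ranked 3249 to 7630 in cDC2 and 172 to 2082 in cDC1 (−3.15, SE 0.38). Cadm1, an adhesion molecule, ranked 6345 to 10101 in cDC2 and 1546 to 2742 in cDC1 (−1.92, SE 0.20). Irf8, the transcription factor on which cDC1 depend, ranked 6843 to 7794 in cDC2 and 2818 to 5082 in cDC1 (−0.78, SE 0.12, adjusted p = 6.76e-06). All 4 were without overlap. Ccdc167 had the greatest size, −5.63, but 0.77 when ranked by signal per base, and Rasgef1b, at 5.22, had −1.70 on that scale.

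Of the migratory subsets, migDC1 and migDC2 differed at 2477 regions nearer the top in migDC1 (12%, with 12.3% of all regions tested) and 3901 lower (18.9%, with 19.1%). Again the balance moved with the scale, to 537 and 4117 with the logit, 3582 and 2258 among these regions alone and 2747 and 2497 with centred signal, and without replicate 1 of Cre-negative migDC1 4250 in all were left. The region inside Nr4a3 ranked 11773 to 15982 in migDC1 and 5 to 28 in migDC2 (−10.14, SE 1.502, adjusted p = 2.00e-05; −10.50 in lettered titles), with peaks of 1138 to 1737 bp in migDC1 and 12931 to 22789 bp in migDC2. The region at its end differed by −7.54 (−7.61 in lettered titles). Gadd45g ranked 1615 to 3820 in migDC1 and 86 to 148 in migDC2 (−4.29, SE 0.65; lettered titles −4.36), and Cytip, an adhesion regulator of leukocytes, ranked 28541 to 37167 in migDC1 and 303 to 2511 in migDC2 (−5.32, SE 1.17; lettered titles −5.14). Nearer the top in migDC1 were a region inside Clec16a, 158 to 245 in migDC1 against 1999 to 3062 in migDC2 (3.57, SE 0.32; lettered titles 3.41), and one inside Etv6, an ETS repressor, 1027 to 1202 in migDC1 against 5896 to 10150 in migDC2 (2.84, SE 0.13, adjusted p = 2.83e-13; lettered titles 2.88). Cadm1 ranked 1832 to 4656 in migDC1 and 7313 to 16316 in migDC2 (2.15, SE 0.23; lettered titles 2.41), and Pmepa1, an inhibitor of TGF-β signalling, 1308 to 1821 in migDC1 and 5458 to 11426 in migDC2 (2.43, SE 0.30; lettered titles 2.47). Cadm1, described above, and Pmepa1 also differed between resident subsets: Pmepa1 ranked 18090 to 28336 in cDC2 and 1475 to 3631 in cDC1 (−3.18, SE 0.27, adjusted p = 1.49e-09).

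DN migDC and migDC2 differed at the fewest regions of the subset pairs compared. Nearer the top in DN migDC were 1098 regions (5.31%, with 5.17% of all regions tested) and lower were 1194 (5.77%, with 6.37%). Of these, 14 and 174 changed 2-fold or more, for which the share over all regions tested is not given. With plain titles alone the counts were 63 and 413, with the logit 22 and 132, with centred signal 357 and 684, by signal per base 102 and 391 and by summit p 757 and 1292. Without replicate 2 of Cre-negative migDC2 456 and 765 were left, 1221 in all, and without replicate 3 of Cre-positive migDC2 1310. Sned1 ranked 2325 to 4437 in DN migDC and 10361 to 18289 in migDC2 (1.82, SE 0.20, adjusted p = 6.36e-06). Dnase1l3, a secreted DNase, ranked 4950 to 8984 in DN migDC and 11585 to 13759 in migDC2 (0.96, SE 0.11). Lower in DN migDC was a distal region by Ttc7b, 823 to 2401 in DN migDC and 48 to 134 in migDC2 (−4.28, SE 0.43), and Igsf8, 214 to 1546 in DN migDC and 53 to 137 in migDC2 (−3.45, SE 0.55). None of these overlapped. The region at the 3′ end of Irf1 ranked 6554 to 17193 in DN migDC and 85 to 5336 in migDC2 (−3.08, SE 0.64); it was −2.68 with adjusted p = 0.10 in lettered titles alone, and by signal per base 0.47.

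Peak width repeated part of this. Across subsets 7401 regions passed on log2 width (35.8%, with 37.8% of all tested). Between migratory and resident cells 2302 were wider (11.1%, with 14.1%) and 4773 narrower (23.1%, with 21.7%); plain titles alone gave 954 wider and 345 narrower, and widths centred on these regions 4391 and 3649. Between cDC2 and cDC1 865 were wider in cDC2 (4.18%, with 4.71%) and 569 narrower (2.75%, with 3.08%), which became 717 and 1357 without the libraries with narrow peaks and 1229 and 1443 with centred widths; leaving out replicate 2 of Cre-negative cDC1 alone gave 688 and 1281. In migDC1 against migDC2, 16 were wider (0.0774%, with 0.108%) and 2374 narrower (11.5%, with 11.6%), and 340 and 665 with centred widths; without replicate 1 of Cre-negative migDC1, 492 in all were left, and 4048 without its replicate 2. Between DN migDC and migDC2 102 regions differed (0.493%, with 0.569%), 1 wider and 101 narrower in DN migDC, and 10 and 58 with centred widths. Taking the median width per library, migratory libraries had 963 ± 113 bp (SD, n = 16) and resident ones 1020 ± 128 bp (SD, n = 12), with an exact two-sided permutation p = 0.232 within genotype (0.387 after adjustment). Plain-titled migratory libraries had 1154 and 1133 bp in migDC2 and 1076 and 813 bp in DN migDC. Only 813 bp lay below the resident mean, so the direction depended on the set of titles. In migDC1 the median width was 867 ± 103 bp (SD, n = 4) and in migDC2 1047 ± 86.2 bp (SD, n = 6, exact permutation p = 0.0200, 0.1 after adjustment over 5 comparisons, the smallest p allowed being 0.01). Lettered migDC2 libraries had 961 to 1081 bp, against 716 to 949 bp in migDC1.

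Among the strongest peaks nearly all lay at regions open everywhere. Of the 1000 strongest peaks, 963 ± 7.68 (SD, n = 16) lay at them in migratory libraries and 951 ± 9.82 (SD, n = 12) in resident ones, a description only, since presence in every library chose the regions. The difference of 12.1 peaks was 4.75 in plain titles alone, and it was −80.8 for the 5000 strongest peaks. Median percentile within the list was 80.4 ± 3.02 in migratory and 78.7 ± 4.17 in resident libraries (exact permutation p = 0.234, 0.389 after adjustment, n = 16 and 12). Plain-titled migratory libraries had 81.4 and 81.7 in migDC2 and 80.5 and 84.7 in DN migDC. With every list cut to its 32088 strongest peaks and the regions chosen anew, the difference over all titles went from 1.70 to −1.56. The adjusted exact permutation p was then 3.66e-05, so the direction depended on list length.

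Loss of the interferon-γ receptor was compared over the 5 subsets. Cre-positive libraries differed at 12 regions, 9 nearer the top (0.0435%, with 0.0406% of all regions tested) and 3 lower (0.0145%, with 0.0135%), while 1107 had an unadjusted p under 0.05. With plain titles alone 13 and 46 passed, with lettered titles 23 and 0, by signal per base 0 and 0, by summit p 8 and 0, 8 and 1 with a signal of at least 400, with the logit 7 and 1, and without both libraries with narrow peaks 26 in all; without replicate 1 of Cre-positive migDC1 there were 21. At Ifngr1 itself the region at the start, on chromosome 10 at 19591054 to 19592900 bp, ranked 903 to 2351 in Cre-positive libraries (median 1449.5) and 943 to 1887 in Cre-negative ones (median 1664.5), a difference of 0.02 (SE 0.10, adjusted p = 0.998). The files do not show which part of the gene was floxed, so this does not check the deletion. In migratory against resident cells it differed by −0.55 (SE 0.10; plain titles −0.67).

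The greatest of the 12 lay inside Itgax. On chromosome 7 at 128131728 to 128134566 bp, within the gene body, Cre-positive libraries ranked 368 to 1215 (median 770.5) and Cre-negative ones 2999 to 11687 (median 6750.5), without overlap (3.03, SE 0.13, adjusted p = 1.72e-13). In IFNgr1-/- migDC2 its rank was 3668 and 5593, and in WT migDC2 6271 and 4915. Peaks there were 2070 to 3663 bp wide in Cre-positive and 920 to 2314 bp in Cre-negative libraries, a log2 width difference of 0.98 (adjusted p = 2.10e-06). The promoter region of Itgax, printed above, differed by 1.46 (SE 0.14), and 2 regions of the adjacent integrin gene Itgam by 0.55 and 0.33. The Cre of these mice is driven by CD11c, the product of Itgax, and Cre-negative mice carry none, so presence of the Cre construct and loss of the receptor cannot be told apart in the floxed cohort.

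Irf1, a transcription factor that interferon-γ induces, moved the other way. Its promoter region, on chromosome 11 at 53768133 to 53772185 bp, ranked 614, 822 and 867 in Cre-positive DN migDC and 514, 443 and 354 in Cre-negative ones. In migDC1 it ranked 184 and 205 in Cre-positive libraries and 93 and 115 in Cre-negative ones, and in migDC2 540, 515 and 522 in Cre-positive libraries and 173, 174 and 298 in Cre-negative ones. Resident cells ranked lower throughout, with 2228, 2505 and 2148 in Cre-positive cDC2 and 1964, 1534 and 1858 in Cre-negative cDC2, and with 2108, 2546 and 2137 in Cre-positive cDC1 and 1187, 1829 and 1480 in Cre-negative cDC1. The 2 genotypes did not overlap in any of the 5 subsets, and over all of them the difference was −0.81 (SE 0.11, adjusted p = 5.81e-04). In IFNgr1-/- migDC2 it ranked 609 and 371, and in WT migDC2 427 and 316, which overlapped (−0.37, SE 0.29). Between migratory and resident cells the same region differed by 2.68 (SE 0.11, adjusted p = 6.46e-16; plain titles 2.21), but by −0.13 when ranked by signal per base and −0.01 by summit p.

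Regions of 3 genes on chromosome 19 differed in the floxed cohort and had differences of the same sign in the germline cohort. Btaf1, a regulator of the TATA-binding protein, ranked 815 to 3106 in Cre-positive libraries (median 2022) and 3136 to 6490 in Cre-negative ones (median 5003.5), without overlap (1.26, SE 0.13, adjusted p = 4.37e-06). In IFNgr1-/- migDC2 it ranked 2358 and 2378, and in WT migDC2 8645 and 5006 (1.47, SE 0.34, adjusted p = 0.486). Fgfbp3, its neighbour, differed by 0.89 in the floxed cohort and 1.01 in the germline one, and Kif11, a mitotic kinesin on the same chromosome, by 0.95 and 0.77; neither passed in the germline cohort. A region inside Rasgrf2 ranked 8232 to 11778 in Cre-positive and 12358 to 30321 in Cre-negative libraries (0.92, SE 0.08), without overlap, and was also wider (0.65, adjusted p = 0.00652). In the germline cohort it ranked 23829 and 23110 in IFNgr1-/- and 21588 and 24058 in WT. Bach1, a haem-responsive repressor, was called at 0.52 (SE 0.09), with 2198 and 2381 in Cre-positive migDC1 and 6921 and 8789 in Cre-negative migDC1 but overlapping ranks in migDC2 and DN migDC; by signal per base it was −0.27. The 2 other lower regions had no gene within 50000 bp and differed by −0.37 each, the one on chromosome 11 by 0.12 when ranked by signal per base.

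In the germline cohort 2 regions passed (0.00967%, with 0.00903% of all tested), both at Pepd, a dipeptidase gene on chromosome 7. The region at its end ranked 2276 and 3025 in IFNgr1-/- and 8335 and 7932 in WT migDC2 (1.63, SE 0.17, adjusted p = 2.34e-05), against 6934 to 11495 over the floxed libraries. The region inside the gene ranked 3347 and 4345 in IFNgr1-/- and 10430 and 12702 in WT (1.59, SE 0.17). A difference of the Cre effect between migratory and resident subsets passed at 0 regions (0.0% of all tested) in limma, with 458 at an unadjusted p under 0.05; in plain titles alone there were 55. On width, 2 regions passed between Cre-positive and Cre-negative libraries (0.00967%, with 0.00903%), those of Itgax and Rasgrf2 given above, with 644 at an unadjusted p under 0.05. Between germline genotypes 4 passed (0.0193%, with 0.0181%), named after their values were seen: Vamp5 and Tab2 were wider and Sdf4 and Xxylt1 narrower in IFNgr1-/-. At Vamp5 the peak was 542 and 683 bp wide in IFNgr1-/- and 233 and 244 bp in WT. The Cre effect on width differed between migratory and resident subsets at 0 regions (0.0% of all tested), with 238 at an unadjusted p under 0.05.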

How the data were processed

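Open chromatin was measured by Omni-ATAC-seq in 32 libraries. Per the submitters' processing notes, reads were handled with Bowtie2, deepTools and Genrich on mm10, and no version or setting is given in those notes. The deposited peak lists give for each peak a signal in column 7 and the −log10 of a p-value in column 8, both as deposited by the authors. The signal was read as an area, as Genrich is known to write it, which no file header states; the files hold no read counts, so depth is unknown and no counting interval can be given.

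Each library's list was ranked by column 7, and a region took its best matching peak. Regions called in at least 2 libraries of each of the 12 groups (22158) were fitted with limma 3.58.1 in R 4.3.3, on −log2 rank and on log2 width, with 1 term per group and Benjamini-Hochberg adjustment at 0.05. Both cohorts entered 1 fit, and values over libraries were compared by exact permutation within genotype or subset. Every arrangement was listed with numpy 2.4.6, and the routine was checked against scipy 1.17.1 on simulated numbers. The fits were tested on simulated data. The regions, the gene lists and the comparisons were chosen with earlier results of these data known. Members were described by their counts beside those of all regions tested.

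Regions were named by rule: the 10 with the lowest geometric mean rank, the 10 widest, up to 10 per direction of each rank comparison whose groups did not overlap, up to 3 genes of each list, the 5 with the smallest and the 5 with the largest SD, and a set of genes of the interferon-γ pathway and of dendritic cells. The text describes a selection of these. The omission of both libraries with narrow peaks was chosen after seeing the data. Alternatives were other overlaps and list minimums, a signal of at least 400, equal list length, other scales, ranking per base or by summit p, single sets of titles, a replicate block and leaving out each library. Replicate numbers carried no stated pairing, and the samples were treated as unpaired.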

Additional observations from a re-analysis of the deposited data

Results flagged for a closer look

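Values of 1 library stood far from the others of its subset in 17 of 115 sets of 4 or 6 libraries examined. The cutoff was meant for about 1 in 20 sets of normally spread values, which raw ranks are not. The sets also share libraries, so the 17 cannot be held against that rate. Of these, 9 belonged to replicate 2 of Cre-negative cDC1. Its median peak width at these regions was 702 bp, against 980 to 1142 bp in the other cDC1 libraries. It ranked H2-Ab1 at 91 (26 to 33 in the others), H2-Aa at 225 (11 to 20), Ifngr2 at 1868 (374 to 853) and B2m at 5093 (2210 to 3223). It ranked Jak1 at 3007 (3985 to 4330), the upstream Spi1 region at 6018 (3488 to 4046), the region at the 3′ end of Irf1 at 31481 (10781 to 14402) and Ptprc at 32427 (8903 to 10640).

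Replicate 1 of Cre-positive DN migDC, the other library with narrow peaks, ranked H2-Ab1 at 4890 (141 to 854 in the other DN migDC libraries) and B2m at 1921 (166 to 353). Replicate 2 of Cre-negative DN migDC ranked Cd74 at 4, where the others ranked it 1. Replicate 3 of Cre-negative migDC2 ranked H2-Ab1 at 9804 (219 to 1429). In migDC1, replicate 1 of the Cre-negative libraries had a median percentile of 71.6 (78.7 to 79.4 in the others), ranked Actb at 47 (4 to 6) and Cd274 at 5553 (6354 to 6395). Replicate 2 of the Cre-positive migDC1 libraries ranked the region at the 3′ end of Irf1 at 3642 (34 to 406).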

How the results depend on the processing

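Of the counts and library values, 873 alternatives left them within 1.5 times, or on the same side of the threshold, 78 moved them, 3 reversed, 3 became stronger and 3 weaker; the causes were not tested. Read depth is unknown, and with 2 to 3 libraries a group the genotype counts are the least stable. With a signal of at least 400, rank calls were 5181 for cDC2 against cDC1 (7988 in full) and 1485 for DN migDC against migDC2 (2292), and width calls were 4817 across subsets (7401), 752 for cDC2 against cDC1 (1434), 1551 for migDC1 against migDC2 (2390), 56 for DN migDC against migDC2 (102) and 1 for Cre (2). Ranked by signal per base, rank calls were 3032 for cDC2 against cDC1, 1659 for migDC1 against migDC2 (6378), 493 for DN migDC, 0 for Cre (12; 800 at an unadjusted p under 0.05 in limma) and 0 for germline KO (2; 370 at an unadjusted p under 0.05). With the logit of the percentile they were 154 for DN migDC and 6 for germline KO, with centred signal 1041 and 5, and by summit p 4 for germline KO.

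With plain titles alone, rank calls were 476 for DN migDC, 59 for Cre and 55 for the difference of Cre effects (0), and width calls 1299 for migratory against resident (7075), 582 for cDC2, 53 for DN migDC and 4 for the difference of Cre effects (0). With lettered titles alone, rank calls were 1474 for DN migDC and 23 for Cre, and width calls 1000 for migDC1 and 12 for DN migDC. Centred widths gave 2672 for cDC2, 1005 for migDC1, 8 for germline KO (4) and 1 for the difference of Cre effects, and summed widths 2 for germline KO. Without both libraries with narrow peaks, chosen after seeing the data, rank calls were 26 for Cre, 5 for germline KO and 7 for the difference of Cre effects, and width calls 4069 for migDC1, 55 for DN migDC, 6 for Cre, 7 for germline KO and 3 for the difference of Cre effects. With a replicate block DN migDC had 4044 rank calls, at a correlation within blocks of 0.363. Same-numbered lettered libraries of different subsets deviated together with rank correlations of −0.154 to 0.481 over 12 pairs. For differently numbered ones it was −0.302 to 0.428 over 36 pairs. These ranges overlap and cannot decide whether the numbers pair the libraries.

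Leaving out 1 library gave rank calls of 4250 to 6126 for migDC1 (4250 without Cre-negative migDC1 replicate 1), 1221 to 2656 for DN migDC (1221 without Cre-negative migDC2 replicate 2, 1310 without Cre-positive migDC2 replicate 3), 10 to 21 for Cre, 3 to 13 for germline KO and 0 to 3 for the difference of Cre effects. Width calls were 492 to 4048 for migDC1 (492 without Cre-negative migDC1 replicate 1, 4048 without its replicate 2, 1111 without Cre-positive migDC1 replicate 1 and 1578 without its replicate 2, and for migDC2 1210 without Cre-negative replicate 1 and 1353 and 1575 without Cre-positive replicates 1 and 3). They were 23 to 100 for DN migDC (23 and 31 without Cre-negative migDC2 replicates 1 and 2, 35 and 29 without Cre-positive migDC2 replicates 1 and 3, 35 and 50 without Cre-negative DN migDC replicates 2 and 3, 24 and 59 without Cre-positive DN migDC replicates 1 and 3), 2 to 43 for Cre (43 without Cre-negative migDC1 replicate 2, 4 without Cre-negative cDC1 replicate 2), 1 to 212 for germline KO (212 without KO replicate 2, 19 without KO replicate 1, 1 without either WT replicate) and 0 to 8 for the difference of Cre effects.

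At equal list length the median percentile differed by −1.56 (1.70 in full) between migratory and resident libraries, 0.469 (−5.45) between cDC2 and cDC1 and −1.35 (−4.16) between migDC1 and migDC2. The adjusted exact permutation p was 3.66e-05, 0.0125 and 0.0167 in that order. Migratory against resident and cDC2 against cDC1 thus turned in sign. Of the 1000 strongest peaks, the difference of 12.1 between migratory and resident libraries was 7.81 with a signal of at least 400, 5.71 at equal list length and 4.75 in plain titles. For the 5000 strongest it was −80.8, and −101.0 for migDC1 (−6.42 for 1000) and 51.7 for DN migDC (2.83).

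Of the alternatives for single regions, 3478 were counted as the same, 146 no longer passed, 11 newly passed and 36 reversed. Values are given here for the reversed ones only. For migratory against resident cells, ranking by signal per base gave −1.03 for Junb, −0.80 for the region beside Frmd8, −0.26 for Pim1, −0.96 for Actb, −0.94 for B2m, −0.13 for Irf1, −0.83 for its 3′ region and −0.21 for Irf8, and −0.0018 for Flt3. Ranking by summit p gave −2.07 for Junb, −0.71 for the region beside Frmd8, −0.45 for Dusp1, −1.17 for Actb, −0.0542 for Rasa2, −0.0124 for Irf1, −0.22 for Jak1, −0.40 for Irf8 and 0.61 for Ifngr2. Centred signal gave −0.23 for Junb, −0.26 for the region beside Frmd8 and −0.0196 for Pim1, and plain titles 0.00 for Cd74. By signal per base, DN migDC against migDC2 gave −0.48 for Jun (summit p −0.18), 0.30 for Zswim4, 0.64 for Lfng and 0.47 for the 3′ region of Irf1, and migDC1 against migDC2 gave −0.51 for Ndrg1 and 0.13 for Clic4 (summit p 0.12). Also by signal per base, −1.70 was found for Rasgef1b and 0.77 for Ccdc167 in cDC2 against cDC1, −0.27 for Bach1 and 0.12 for the chromosome 11 region at 31732402 bp in the Cre comparison, 1.21 for Ehd1 in DN migDC against migDC2 and 0.15 for the chromosome 6 region at 31047734 bp in migDC1 against migDC2. "Uncalled at last rank" applies to ranks only and was not run for width.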
